A study of Mus musculus with 12 samples.

Results

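Glomeruli isolated from mice injected with tamoxifen were compared with glomeruli of control mice, across every gene that the array named and measured. The comparison was chosen by its sample labels and used 4 of the 12 arrays of the series, 2 of treated and 2 of control mice. All mice, controls included, were labelled Inducible-Cre with both alleles of Foxc1 and of a second Foxc gene floxed. The labels number that second gene differently in every sample, and it is taken here to be Foxc2, as in the study's title and in the label of control replicate 1. The study describes the recombinase as CreERT2, a Cre that tamoxifen activates. Treated mice received tamoxifen intraperitoneally on 3 days in a row at 8 weeks of age and their glomeruli were taken on day 7. The label of the control mice gives no agent and names no vehicle. It also gives no age and no day of isolation, so whether the groups were matched in these is not known. The promoter that drives the Cre is not given in the sources used here, so the labels do not say which glomerular cells could recombine. Drug and gene loss went together in both treated mice and cannot be told apart. The other 8 arrays were of primary podocyte cultures of the same genotype, treated with tamoxifen or mock and labelled as cultures of 4 or 7 days. They entered the estimate of the spread and a test of whether glomerular and culture responses differed.

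A glomerulus is a tuft of capillaries held by mesangial cells and wrapped by podocytes, epithelial cells whose interlocking foot processes and slit diaphragms form the last layer of the blood filter. Foxc1 and Foxc2 are closely related forkhead transcription factors, which bind DNA through a winged-helix domain and take part in the formation of podocytes in the embryo. The study's title concerns whether both are needed to maintain podocytes. Levels below are log2 of the processed signal minus the array's 75th percentile, so that a value of 0 is a spot as bright as that percentile and a difference of 1 is 2-fold. Levels of different probes were not compared with each other. A gene was called, and is said to have risen or fallen, when limma's Benjamini-Hochberg adjusted p was under 0.05 over all 14038 genes tested.

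Of the 14038 genes, 493 were called (3.51%), 324 higher (2.31%) and 169 lower (1.2%) in treated glomeruli. The change was 2-fold or more for 290 of them. Both treated arrays lay above both controls for 19.3% of all genes and below both for 29%, so that the groups did not overlap for 48.3%. The median difference of all genes was -0.05, and with each array scaled to its median instead, 327 genes were called higher and 88 lower, so that the share of higher calls was 78.8% in place of 65.7%. Replicates correlated at 0.981 in controls and 0.984 in treated mice, and control replicate 2 correlated about as well with treated replicate 2 (0.982). All 4 arrays shared 1 slide and 1 scan. Between 58.9% and 63.4% of the spots of each glomerular array were well above background and 0 were saturated. Markers of the tissue were in place: the podocyte genes Nphs1, Podxl and Wt1, the endothelial genes Kdr, Ehd3 and Pecam1 and the mesangial genes Pdgfrb, Itga8 and Gata3 were well above background on all 4 arrays. With 2 against 2 samples an exact permutation test cannot give a two-sided p under 0.333. The limma fit on the 4 glomerular arrays alone called 0 genes, with 2026 at an unadjusted p under 0.05, against 2749 in the fit on all 12 arrays, and with normexp background correction of the median signal, in place of the scanner's processed signal, 12 genes were called, among them Foxl1, Adamts8, Hbb-b2, Papss2, Hbb-bt, Cgref1, Hacl1, Foxc2, Plagl1, Pter and Stbd1. Without treated replicate 1 the count of called genes was 89, without control replicate 1 it was 135, and without single culture arrays it was 149 to 279. Of the 493 genes, 42 were called whichever of the 12 arrays was left out, 30 higher and 12 lower.

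Foxc2 fell, and its neighbour Foxl1 rose. Foxc2 read 2.10 and 2.24 in control glomeruli and -1.12 and -0.19 in treated glomeruli, a difference of -2.82 (SE 0.51, n = 2 against 2, limma adjusted p = 0.031). Foxc1 read 2.92 and 2.81 in controls and 0.92 and 1.09 in treated glomeruli, a difference of -1.86 (SE 1.68, adjusted p = 0.61). Neither gene's groups overlapped, and both genes stayed well above background on both treated arrays. The glomerular replicates of Foxc1 lay close together, and its large SE came from the culture arrays that share the estimate. There 1 of the 2 treated arrays of each day was well above background. On the 4 glomerular arrays alone the limma p of Foxc1 was 0.00021 unadjusted and 0.24 adjusted. In bulk tissue fewer cells of a type and less RNA per cell cannot be told apart, and whether the probes lie in the deleted parts of the genes is not given in the sources used here. Foxc2 was not called once control replicate 1 (adjusted p = 0.10), control replicate 2 (0.073) or treated replicate 1 (0.17) was left out, nor without either mock array of day 4 (0.059) or without any single array of day 7 (0.055).

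Foxl1, another forkhead factor, is the next gene to Foxc2 in the RefSeq annotation. It read 0.20 and 0.27 in controls and 2.73 and 3.13 in treated glomeruli, a rise of 2.69 (SE 0.21, adjusted p = 0.0047). The controls lay close together and both treated arrays lay far above them. Foxl1 was also higher in treated than in mock cultures, by 1.81 at day 4 and 1.69 at day 7, and it was called whichever of the 12 arrays was left out. The gene on the other side of Foxc2, Mthfsd, differed by -0.01 (adjusted p = 0.99). Farther out, Irf8 differed by 0.09 and Fbxo31 by 0.33, neither of them called, and Foxf1 and 1700018B08Rik had no probe that passed the filter. Around Foxc1 the forkhead gene Foxq1 differed by 0.17, Gmds by 0.77 and Wrnip1 by 0.24, none of them called, while Foxf2, Hus1b and Mylk4 did not pass the filter.

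**Figure D1:**
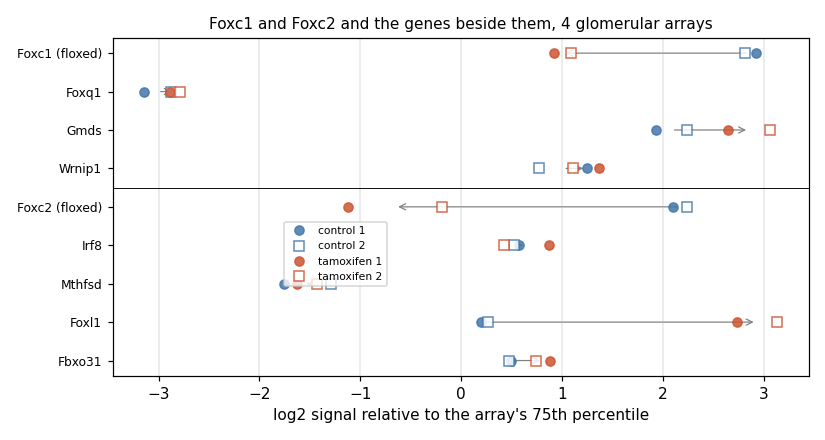
Level of Foxc1 and Foxc2 and of their tested neighbours on each of the 4 glomerular arrays (log2 signal relative to the array's 75th percentile), with control and tamoxifen arrays in different colours. Both floxed genes lie lower and Foxl1 lies higher on both treated arrays, while Mthfsd and Irf8 overlap.

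Of 37 forkhead genes listed besides Foxc1 and Foxc2, 22 were tested, 2 rose and 1 fell, against 2.31% and 1.2% of all genes. Besides Foxl1, Foxe1 rose from -5.37 and -5.97 to -3.48 and -3.11 (difference 2.37, SE 0.23, adjusted p = 0.0066), and its control replicate 2 was not well above background. Foxn3 read 0.52 and 0.46 in controls and -0.16 and -0.21 after tamoxifen (difference -0.68, SE 0.13, adjusted p = 0.039), and with median scaling its adjusted p was 0.095. Foxd2 differed by -0.88 and Foxd1 by -0.61, neither of them called. The list's median was -0.15, beside -0.05 for all genes. Counts and medians of this and every later list are over its tested members, and a dim gene could pass the filter through 1 group alone. Where no share stands beside a count of calls, 2.31% of all genes were called higher and 1.2% lower. A single call is not read as a result about its list.

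Promoters were read for GTAAACA, a core that many forkhead factors bind, to show how often it stands near genes that changed. In the 250 bases before the start, on either strand, it stood in 2.47% of 324 promoters of genes called higher and in 1.88% of 160 promoters of genes called lower, against 2.25% of the 14207 promoters of tested genes. RefSeq's promoter table (GRCm38.p6) held 259 of the 324 genes called higher and 128 of the 169 called lower, some with several starts. Nepn, of the small leucine-rich repeat family and among the largest rises below, had 1 match, shown in capitals as the other strand spells it, at position -158 from its start (chr10:52391358-52391607, plus strand).
Nepn: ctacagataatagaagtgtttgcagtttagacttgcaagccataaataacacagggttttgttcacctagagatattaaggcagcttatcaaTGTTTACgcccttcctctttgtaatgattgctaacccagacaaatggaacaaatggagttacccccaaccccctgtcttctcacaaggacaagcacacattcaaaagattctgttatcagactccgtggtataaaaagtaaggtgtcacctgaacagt
A match says only that these letters stand in this window.

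Among called genes well above background on all 4 glomerular arrays, the largest rises were those of secreted proteins, metabolic enzymes, transporters and a smooth muscle gene. Angptl7, a secreted angiopoietin-like protein, read -2.78 and -3.63 in controls and 2.22 and 0.01 in treated glomeruli, a rise of 4.32 (SE 0.69, adjusted p = 0.023). Adamts8, a secreted metalloprotease, rose from -4.42 and -3.76 to -0.41 and -0.79, by 3.48 (SE 0.36, adjusted p = 0.01). The treated arrays lay wide apart for Angptl7 and close together for Adamts8, all above the controls. A second probe of Adamts8 differed by 0.37, so its probes disagreed in size. Creg2, a secreted glycoprotein, read -2.99 and -2.17 in controls and 0.10 and -0.46 in treated glomeruli, a rise of 2.40 (SE 0.27, adjusted p = 0.01).

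Cnn1, the smooth muscle protein calponin, rose from -2.71 and -4.52 to -0.87 and -1.17 (2.60, SE 0.55, adjusted p = 0.046). Ntf5, a neurotrophin, rose from -3.76 and -3.84 to -1.64 and -1.79 (2.08). Nepn rose from -3.55 and -1.79 to -0.02 and -0.69 (2.31). The controls of Cnn1 and Nepn lay wide apart, those of Ntf5 close together. The remaining largest rises, besides Foxl1, were Ces1f, a carboxylesterase (2.73), Hsd3b2, a steroid dehydrogenase with near-identical copies whose signal may be shared (2.61), Sectm1b (2.47), Plin5, which coats lipid droplets (2.37), Slc22a27, an organic anion transporter (2.08), Dleu7 (2.07) and Amn, the partner of cubilin in protein uptake by the proximal tubule (2.06).

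The largest falls among such genes were those of globins, then Foxc2, a connexin, an interferon-induced gene and genes of leukocytes. Hbb-b2, a beta globin, read 2.06 and 0.73 in controls and -5.04 and -3.18 in treated glomeruli, a difference of -5.50 (SE 0.60, adjusted p = 0.01). Gja3, a connexin of gap junctions, fell from -2.14 and -1.56 to -4.67 and -3.83 (difference -2.40, SE 0.31, adjusted p = 0.016). Ifitm1, an interferon-induced membrane protein, fell from -0.94 and -1.22 to -3.31 and -2.98 (difference -2.06, SE 0.32, adjusted p = 0.023). The replicates of Ifitm1 lay close in both groups, and it was also lower in treated cultures, by -1.58 at day 4 (1 of the 2 treated arrays well above background) and at least 2.22-fold at day 7 (neither of them).

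Plagl1, an imprinted zinc finger factor, read 4.21 and 4.35 in controls and 2.93 and 2.92 after tamoxifen (difference -1.35, SE 0.19, adjusted p = 0.018). All 4 probes of Plagl1 were lower, by -0.49 to -1.35. Amph, an endocytosis protein, fell from 0.56 and 0.47 to -0.86 and -0.77 (difference -1.33). Fgfbp1, which binds fibroblast growth factors, differed by -1.64, Eml2, a microtubule-associated protein, by -1.35 and Pld6, a mitochondrial phospholipase, by -1.34, all of them called. With median scaling Fgfbp1 (adjusted p = 0.059) and Eml2 (0.071) were not called.

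**Figure D2:**
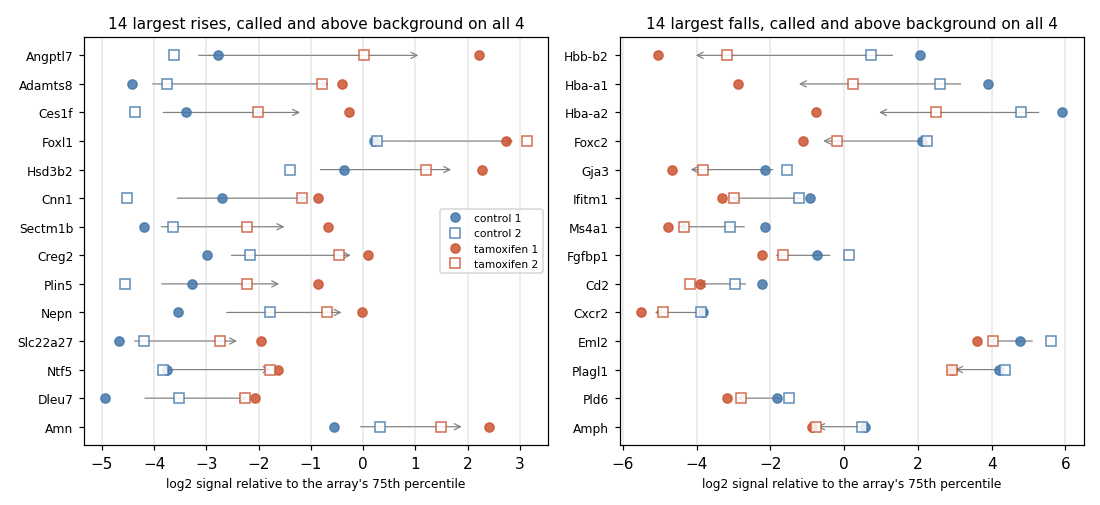
Level on each of the 4 glomerular arrays of called genes well above background on all 4, the 14 that rose most and the 14 that fell most (log2 signal relative to the array's 75th percentile), with control and tamoxifen arrays in different colours. Both treated arrays lie on one side of both controls for each gene, as the choice of these genes required, and the globins Hbb-b2, Hba-a1 and Hba-a2 are lowest on treated replicate 1.

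Of these 14 rises, Adamts8, Creg2 and Foxl1 were called whichever of the 12 arrays was left out, and of the 14 falls Hbb-b2 was. Without treated replicate 1, 3 of the 14 rises and 2 of the 14 falls stayed called. Without control replicate 1 it was 7 and 6, without control replicate 2 it was 8 and 7, and without treated replicate 2 it was 10 and 12.

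The smallest p-values were those of Kcnj14 and Iqcf5, whose treated readings were not well above background. Kcnj14, an inward rectifier potassium channel, read -2.87 and -3.24 in controls and -7.44 and -7.38, not well above background, in treated glomeruli, where it was at least 6.0-fold lower (adjusted p = 2.2e-05). Iqcf5 read -3.87 and -3.95 in controls and -7.38 and -7.50, not well above background, in treated glomeruli, at least 3.31-fold lower (adjusted p = 9.3e-05). For these bounds the bright group's mean was divided by a floor for the dim group, taken on each array as its dimmest signal still well above background, or as the probe itself where that was brighter. Their p-values rest on these dim readings. In cultures neither gene was well above background on any array. With normexp neither was called (adjusted p = 0.41 for Kcnj14 and 0.77 for Iqcf5).

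Among genes well above background on all 4 arrays, Tmem72, a membrane protein, rose from -4.14 and -3.90 to -2.13 and -2.25 (1.83, SE 0.13, adjusted p = 0.0033). Slc49a4, a membrane transporter, fell from -1.54 and -1.66 to -2.68 and -2.67 (difference -1.07, SE 0.09, adjusted p = 0.0056). For both the replicates lay far closer together than the groups. Crb3, a polarity protein of epithelia, rose by 1.49, Gsta2, a glutathione transferase with near-identical copies, by 1.79, and Shisal1 by 1.68. Ddx25, an RNA helicase, differed by -0.97, and Rhox3a, a homeobox gene not well above background in treated glomeruli, was at least 1.49-fold lower. These genes, with Foxl1 and Hbb-b2, were among the 12 with the smallest p-values, 6 in each direction, and all 12 were called whichever array was left out.

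Other bounds concerned genes dim in 1 group. Nrcam, a neural cell adhesion molecule, read -4.12 and -3.0 in treated glomeruli and was at least 5.29-fold higher there than in controls (adjusted p = 0.023). It was also higher in treated cultures, by 1.68 at day 4 and 1.73 at day 7. Nmur2, a neuromedin U receptor, was at least 3.80-fold higher, and 3 oxidases of foreign compounds were too, Fmo4 at least 3.21-fold, Cyp2f2 2.69-fold and Cyp2c67 2.56-fold. With normexp 0 of these 5 rises, and 0 of the 5 falls that were bounds (Kcnj14, Iqcf5 and the blood genes Alas2, Ppbp and Ngp), were called.

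Podocyte genes were mostly a little lower, and 4 of them fell. Of 25 tested genes of the foot process cytoskeleton 2 fell and 0 rose, against 1.2% and 2.31% of all genes. The median difference was -0.25. Synpo, the actin-binding synaptopodin, read 5.22 and 5.68 in controls and 3.95 and 4.30 after tamoxifen (difference -1.32, SE 0.24, adjusted p = 0.031), and its other probe differed by -0.76. Itga3, the integrin subunit that anchors podocytes to their basement membrane, read 2.76 and 2.91 against 2.19 and 2.36 (difference -0.56, SE 0.12, adjusted p = 0.049). Neither gene's groups overlapped. Ptpro, a receptor phosphatase of the podocyte surface, read 5.36 and 5.86 against 4.02 and 4.79 (difference -1.20, adjusted p = 0.15), and Rhpn1 differed by -1.18 (adjusted p = 0.18). Anln, the actin-binding anillin, differed the other way, by 1.19 (adjusted p = 0.24).

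Of 43 tested surface and secreted podocyte genes 2 fell and 0 rose, against 1.2% and 2.31% of all genes. The median was -0.29. Thsd7a, known as an antigen of membranous nephropathy, read 5.0 and 4.94 in controls and 3.82 and 4.11 after tamoxifen (difference -1.01, SE 0.12, adjusted p = 0.013). Its 3 probes were alike, at -0.95, -1.01 and -1.11, and it was called whichever of the 12 arrays was left out. Mapt, the microtubule protein tau, read 5.80 and 5.97 against 5.17 and 5.14 (difference -0.73, SE 0.14, adjusted p = 0.039). Podxl, the charged surface protein podocalyxin, read 4.58 and 4.95 against 3.95 and 4.38 without being called (difference -0.60, adjusted p = 0.12). Cdh3, a cadherin, differed by 1.17 (adjusted p = 0.073) and Rarres1 by -1.27 (adjusted p = 0.25).

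The calls of Synpo, Itga3 and Mapt were lost with median scaling (adjusted p = 0.053, 0.14 and 0.061). They were lost as well without control replicate 1 (0.058, 0.095 and 0.084), control replicate 2 (0.076, 0.12 and 0.089) or treated replicate 1 (0.17, 0.24 and 0.16), and without treated replicate 2 that of Itga3 (0.066) and of Mapt (0.094). Itga3 was not called without any 1 culture array either (0.063 to 0.085), nor Synpo without any 1 array of day 4 (0.059 to 0.062), nor Mapt without a mock array of day 4 or any array of day 7 (0.06 to 0.064).

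No gene of the slit diaphragm was called by limma among 20 tested, where 3.51% of all genes were. Nphs1, nephrin, read 4.52 and 5.06 in controls and 4.36 and 4.62 after tamoxifen, with overlapping groups (difference -0.29, adjusted p = 0.70). Both treated arrays lay below both controls for 9 of the 20 and above for 0, against 29% and 19.3% of all genes, and the median was -0.26. Members ran from -0.65 (Plce1, a phospholipase, and Nck2, an adaptor) to 0.70 (the channel Trpc6). The list's median stayed below 0 within each replicate number, at -0.21 and -0.27.

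Of 18 tested podocyte transcription factors 1 rose, Foxl1, and 0 fell, with a median of -0.24. Wt1, which podocytes need to form and persist, read 5.40 and 6.02 against 4.93 and 5.62, with overlapping groups. Lmx1b, the factor of nail-patella syndrome, read -2.45 and -1.85 against -3.08 and -2.61 (difference -0.70, adjusted p = 0.15). Of 20 tested basement membrane genes 0 were called, and the median was -0.01. Hspg2, the proteoglycan perlecan, read 2.38 and 2.17 against 1.33 and 1.65 (difference -0.79, adjusted p = 0.061), and the collagen chain Col4a3 differed by -0.43 (adjusted p = 0.30).

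Endothelial genes were also mostly a little lower, without a call. Of 30 tested 0 were called, 14 had both treated arrays below both controls and 0 above, against 29% and 19.3% of all genes, and the median was -0.32. Kdr, the VEGF receptor, read 5.55 and 5.28 against 5.13 and 5.11, and Emcn, endomucin, 4.63 and 4.47 against 4.00 and 3.89. Of 27 tested angiogenic ligands and receptors 1 rose, Angptl7, against 2.31% of all genes called higher, and the median was -0.07. Angptl4, a regulator of lipoprotein lipase, read 2.68 and 2.34 against 4.62 and 3.07 without being called (difference 1.34, adjusted p = 0.35).

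Mesangial and mural genes separated the controls rather than the groups. Of 20 tested 0 were called, and the median was 0.13. Itga8, the integrin subunit of mesangial cells, read 5.14 and 4.03 in controls and 4.76 and 4.70 in treated glomeruli, and Gata3 read 4.16 and 2.61 against 3.79 and 3.73. Relative to each gene's mean over the 4 arrays, the list's median was 0.48 on control replicate 1 and -0.55 on control replicate 2, with the treated arrays between them at 0.12 and 0.14. Within replicate number 1 the median difference was -0.37 and within number 2 it was 0.65, so its direction depended on the control.

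Acta2 and Cnn1, contractile genes of smooth muscle, rose. They were the 2 calls among 15 tested smooth muscle and renin cell genes, of which 0 fell and 9 had both treated arrays above both controls, against 19.3% of all genes, and the median was 0.66. Acta2, smooth muscle actin, read 1.59 and 1.55 in controls and 2.54 and 2.79 in treated glomeruli (1.1, SE 0.13, adjusted p = 0.013). It was called whichever of the 12 arrays was left out, and the values of Cnn1 are given above. Myh11, smooth muscle myosin, read -1.88 and -2.08 against -0.68 and -0.63 (1.32, adjusted p = 0.069), and Ren1, renin, read -0.41 and -1.48 against 0.04 and 0.88 (1.41, adjusted p = 0.23). The summed linear level of the list was 128 and 94.8 in controls and 115 and 133 in treated glomeruli, which overlap. Fibroblast genes gave 1 rise among 15 tested, Cygb, cytoglobin, from 0.87 and 1.43 to 2.85 and 2.94 (1.75, SE 0.30, adjusted p = 0.028), with a list median of 0.21. The collagen genes Col1a1 (1.82, adjusted p = 0.24) and Col1a2 (0.89, adjusted p = 0.27) were not called. Of 15 tested genes of the parietal epithelium of Bowman's capsule 0 were called, with a median of 0.15, and the keratin Krt8 differed by 1.48 (adjusted p = 0.16).

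Genes of the proximal tubule were higher in treated glomeruli almost throughout. Of 38 tested, 11 rose and 0 fell, against 2.31% of all genes called higher, and 37 had both treated arrays above both controls, against 19.3%. The median difference was 1.57. Without control replicate 1, 2 of the 11 calls remained, without treated replicate 1, 2 did, without control replicate 2, 8 did, and without treated replicate 2, 10 did. Slc22a6, an organic anion transporter, read 1.85 and 1.79 in controls and 3.78 and 3.15 in treated glomeruli (1.65, SE 0.19, adjusted p = 0.012). Hao2, a peroxisomal hydroxyacid oxidase, rose from 1.08 and 0.58 to 3.08 and 2.45 (1.94, SE 0.23, adjusted p = 0.012). Both were called whichever of the 12 arrays was left out. Lrp2, the endocytic receptor megalin, read 1.90 and 1.86 against 3.96 and 2.84 (1.52, SE 0.31, adjusted p = 0.045).

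The defining phosphate and glucose transporters of the proximal tubule also read higher on both treated arrays than on both controls, without being called. Slc34a1 read 3.11 and 3.83 against 5.49 and 4.52 (1.53, adjusted p = 0.069), and Slc5a2 read 0.75 and 2.53 against 4.18 and 2.97 (1.94, adjusted p = 0.11). Treated replicate 1 was highest and control replicate 1 lowest for both. The summed linear level of the 38 genes was 237 and 290 in controls and 843 and 487 in treated glomeruli. The median difference was 2.19 within replicate number 1 and 0.87 within number 2, and without treated replicate 1 it was 1.18. The share of tubule fragments in each preparation was not measured, and its part in these differences was not tested. The level of this list is set beside the metabolic lists below.

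**Figure D3:**
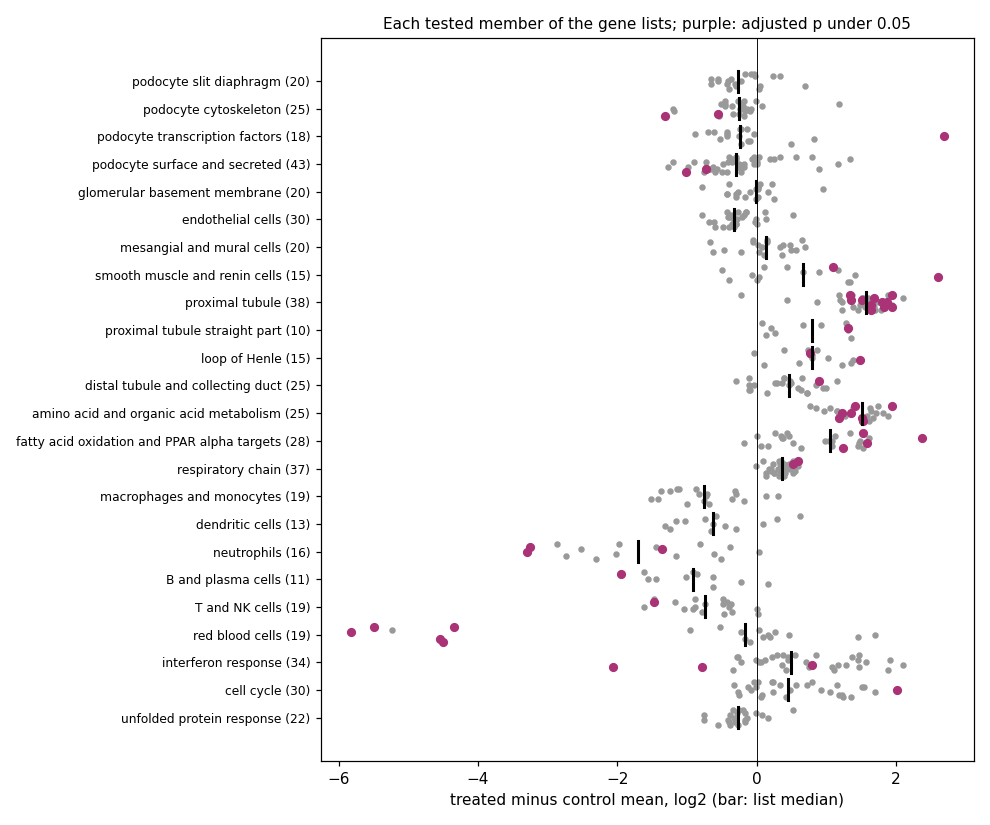
Difference between treated and control glomeruli (log2) for the tested members of the gene lists, with each list's median. Lists of the proximal tubule and of amino acid and fatty acid metabolism lie to the right, those of neutrophils and other leukocytes to the left, and the podocyte and endothelial lists slightly to the left.

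Lists of later segments of the tubule had smaller medians. Of 15 tested genes of the loop of Henle 2 rose and 0 fell, against 2.31% and 1.2% of all genes. The median was 0.79. Slc12a1, the sodium-potassium-chloride cotransporter, read -3.42 and -3.16 against -2.22 and -1.39 (1.48, SE 0.24, adjusted p = 0.026), and Kcnj1, its potassium channel partner, 2.92 and 3.21 against 3.83 and 3.83 (0.77, SE 0.13, adjusted p = 0.028). Umod, uromodulin, read 5.04 and 4.66 against 4.95 and 4.96, with overlapping groups (0.10). Of 25 tested genes of the distal tubule and collecting duct 1 rose, the sodium channel subunit Scnn1a, from 0.72 and 0.43 to 1.63 and 1.31 (0.89, SE 0.14, adjusted p = 0.022), and the median was 0.46. The water channel Aqp2 read -0.40 and -0.49 against -0.50 and -0.62 (difference -0.11). In the straight part of the proximal tubule 1 of 10 tested genes rose, Slc6a18, by 1.32, with a median of 0.80.

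Genes of amino acid and organic acid metabolism were higher in all 25 tested by their means, 7 rose and 22 had both treated arrays above both controls, against 19.3% of all genes, with a median of 1.51. Without control replicate 1, 2 of the 7 calls remained, and without treated replicate 1, 3 did. Dmgdh, dimethylglycine dehydrogenase, read -1.41 and -1.34 against 0.34 and -0.05 (1.52, SE 0.14, adjusted p = 0.0058). Bhmt, which remethylates homocysteine with betaine, read -1.0 and -0.61 against 0.27 and 0.82 (1.35, adjusted p = 0.02), and all 3 of its probes were higher. Gnmt, glycine methyltransferase (1.19), Haao (1.53), Fah, the last enzyme of tyrosine breakdown (1.41), and Khk, ketohexokinase (1.22), rose too. The summed level of the list was 33.3 and 44.7 in controls and 134 and 77.1 in treated glomeruli, in the same order of arrays as the proximal tubule list. The lists are not separate, since Hao2 is a member of both and its call was counted in each.

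Of 28 tested genes of fatty acid oxidation and of PPAR alpha 4 rose and 0 fell, with a median of 1.06. These were Plin5, given above, and the fatty acid hydroxylases Cyp4a10 (1.58), Cyp4a14 (1.24) and Cyp4a31 (1.53), close relatives whose probes may share signal. Cyp4a10 read 1.47 and 1.02 against 3.31 and 2.34 (SE 0.31, adjusted p = 0.039). Without control replicate 2 or treated replicate 1, 0 of the 4 were called. Of 31 tested genes of drug and steroid metabolism 6 rose and 0 fell, with a median of 0.96. Cyp2d26 read 2.77 and 3.57 against 5.37 and 4.59 (1.81, SE 0.33, adjusted p = 0.033), Cyp2j5 rose by 1.45, and Ces1f, Fmo4, Gsta2 and Hsd3b2 are given above. Without treated replicate 1, 1 of the 6 was called. The summed level was 112 and 100 against 239 and 141 for the fatty acid list, highest on treated replicate 1 as for the proximal tubule list, and 145 and 128 against 206 and 141 for the drug and steroid list, where the groups overlap.

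Nuclear genes of the respiratory chain were higher by little and evenly. Of 37 tested 2 rose and 0 fell, against 2.31% and 1.2% of all genes. For 34 both treated arrays lay above both controls, against 19.3% of all genes, and the median was 0.36. Uqcrfs1, the Rieske protein of complex III, read 3.23 and 3.37 against 3.94 and 3.88 (0.60, SE 0.10, adjusted p = 0.023). Sdhb, of complex II, read 4.78 and 4.95 against 5.46 and 5.34 (0.53, SE 0.10, adjusted p = 0.04), and with median scaling its adjusted p was 0.061. Of 28 tested ribosomal protein genes 0 were called, with a median of -0.06. Among 10 tested genes known to differ between the sexes in kidney 1 rose, Cyp4a14, and the median was 1.07. As a check of sex, Xist was well above background on all 12 arrays with both of its probes, and Ddx3y, Eif2s3y, Kdm5d and Uty on 0 of 12.

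**Figure D4:**
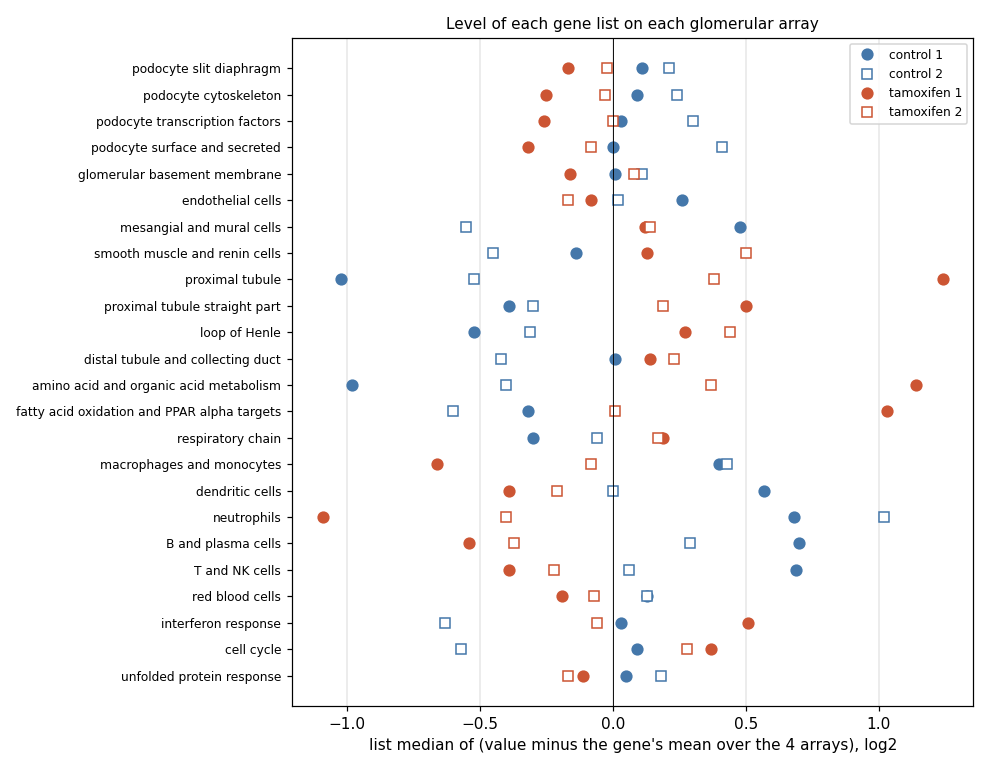
Level of each gene list on each of the 4 glomerular arrays, relative to each gene's mean over the arrays (log2, median over tested members). The proximal tubule list is highest on treated replicate 1 (1.24) and lowest on control replicate 1 (-1.02), and the mesangial list sets the controls apart.

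Globins fell in treated glomeruli, while the red cell genes as a list went both ways. Of 19 tested red cell genes 5 fell and 0 rose, against 1.2% of all genes called lower. Hba-a1, an alpha globin, read 3.90 and 2.59 in controls and -2.87 and 0.25 after tamoxifen (difference -4.55, SE 0.98, adjusted p = 0.048), and Hba-a2 read 5.92 and 4.80 against -0.76 and 2.49 (difference -4.50, SE 0.89, adjusted p = 0.04). Hbb-bt, a beta globin, read 2.88 and 1.79 against -5.42, not well above background, and -1.57 (difference -5.83, SE 1.01, adjusted p = 0.028). Treated replicate 1 was lowest for each globin named. Alas2, which starts haem synthesis in the red cell lineage, read -1.86 and -3.04 in controls and was at least 9.12-fold lower in treated glomeruli, where it was not well above background.

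Globin copies share sequence, so their probes may share signal. The bases before the starts of Hba-a1 and Hba-a2 show how alike these copies are: 247 of 247 aligned bases were identical. The CCAAT box, in capitals on whichever strand it stands, occurred in 53.3% of 15 promoters of tested red cell genes and in 34.7% of those of all tested genes. It also stood in 66.7% of 21 promoters of tested clock genes, so a high share was not particular to red cell genes. The promoters are those of Hba-a1 (chr11:32283422-32283671, plus strand), Hba-a2 (chr11:32296242-32296491, plus strand) and Hbb-bt (chr7:103813924-103814173, minus strand).
Hba-a1: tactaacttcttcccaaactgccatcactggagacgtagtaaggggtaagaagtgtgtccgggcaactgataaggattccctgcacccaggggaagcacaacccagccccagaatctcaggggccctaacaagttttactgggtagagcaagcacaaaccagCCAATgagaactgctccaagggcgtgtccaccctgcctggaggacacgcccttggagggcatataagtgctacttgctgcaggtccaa
Hba-a2: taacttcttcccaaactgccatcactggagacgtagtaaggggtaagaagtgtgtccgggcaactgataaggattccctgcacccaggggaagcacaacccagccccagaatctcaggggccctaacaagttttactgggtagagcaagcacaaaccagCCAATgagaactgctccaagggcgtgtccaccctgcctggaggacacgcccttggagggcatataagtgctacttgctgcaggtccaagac
Hbb-bt: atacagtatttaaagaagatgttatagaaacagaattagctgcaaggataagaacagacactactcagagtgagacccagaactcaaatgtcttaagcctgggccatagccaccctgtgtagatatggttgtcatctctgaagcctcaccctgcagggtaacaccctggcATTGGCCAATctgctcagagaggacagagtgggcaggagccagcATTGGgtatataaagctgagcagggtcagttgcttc
The first pair has 1 CCAAT each, at -88 and -91 from the start, and Hbb-bt has 3.

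The median of the red cell list was -0.16, and 8 of its 19 tested genes had the higher mean in treated glomeruli. Both treated arrays lay above both controls for 4 genes and below both for 9, against 19.3% and 29% of all genes. Car2, a carbonic anhydrase that tubule cells also make, read -0.15 and 0.52 against 2.28 and 1.49 (1.70, adjusted p = 0.12), and Sptb, beta spectrin, differed by -0.96 (adjusted p = 0.086). The summed level was 128 and 81.3 in controls and 52.2 and 54.3 in treated glomeruli. Without control replicate 1, 1 of the 5 calls remained, and without treated replicate 1, 2 did.

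Some genes of neutrophils, B cells and T cells fell as well, where 1.2% of all genes did. Of 16 tested neutrophil genes 3 fell and 0 rose, 14 had both treated arrays below both controls, against 29% of all genes, and the median was -1.71. Cxcr2, a chemokine receptor, read -3.83 and -3.88 against -5.52 and -4.92 (difference -1.36, SE 0.19, adjusted p = 0.018). Wfdc21 read -2.64 and -2.52 against -6.59, not well above background, and -5.09 (difference -3.26, SE 0.46, adjusted p = 0.019), and the granule gene Ngp was at least 2.43-fold lower. S100a8 and S100a9, the abundant calcium-binding proteins of neutrophils, were not called: S100a9 read 3.80 and 3.94 against 0.66 and 2.49 (difference -2.30, adjusted p = 0.11). With normexp the list's median was -0.44. Lcn2, which neutrophils and injured tubules make, read -0.73 and -0.68 against -1.88 and -1.85 (adjusted p = 0.095).

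Of 11 tested B and plasma cell genes 1 fell, Ms4a1, the surface protein CD20, from -2.16 and -3.09 to -4.79 and -4.34 (difference -1.95, SE 0.28, adjusted p = 0.02), and the median was -0.92. Of 19 tested T and NK cell genes 1 fell, Cd2, an adhesion receptor, from -2.22 and -2.95 to -3.92 and -4.19 (difference -1.47, SE 0.22, adjusted p = 0.021), and the median was -0.74. The T cell receptor partner Cd3e, by contrast, read -1.14 and -1.34 against -1.44 and -1.01. Of 19 tested macrophage genes and 13 tested dendritic cell genes 0 were called, with medians of -0.75 and -0.62. With normexp the medians were -0.11 for B and plasma cells and -0.12 for T and NK cells. For macrophages it was then -0.14 and for dendritic cells -0.17. Ptprc, the common leukocyte antigen CD45, read -3.01 and -3.40 against -4.63 and -3.98 (difference -1.11, adjusted p = 0.054). Of 8 tested platelet genes 1 fell, the chemokine Ppbp, at least 3.02-fold, and the list's median was 0.15. Pf4, another platelet chemokine, differed by 0.48. How much blood each preparation held was not measured, and its part in these differences was not tested.

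Interferon-induced genes were mostly higher, with calls both ways. Of 34 tested 1 rose and 2 fell, against 2.31% and 1.2% of all genes, and 27 had the higher mean in treated glomeruli. Both treated arrays lay above both controls for 13 and below both for 3, against 19.3% and 29% of all genes. The median was 0.50, and 0.18 without control replicate 2. Xaf1, an apoptosis factor, rose from 0.31 and 0.01 to 1.01 and 0.89 (0.79, SE 0.16, adjusted p = 0.041). Gbp6, a guanylate-binding protein, fell by its brighter probe, from -1.64 and -1.88 to -2.43 and -2.66 (adjusted p = 0.026), whereas its other probe differed by 0.78. Isg15, a ubiquitin-like protein, read 2.16 and 0.82 against 4.29 and 2.89 without being called (2.10, adjusted p = 0.062), and Usp18, which removes it, differed by 1.57 (adjusted p = 0.053). Control replicate 2 was lowest and treated replicate 1 highest for both, and for the list, whose summed level was 103 and 68 in controls and 168 and 99.8 in treated glomeruli.

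Among 30 tested cell cycle genes 1 rose and 0 fell, against 2.31% and 1.2% of all genes, with a median of 0.45. Rrm2, a subunit of ribonucleotide reductase, rose from -2.41 and -2.52 to -0.20 and -0.71 (2.01, SE 0.24, adjusted p = 0.012) and was called whichever of the 12 arrays was left out. The proliferation marker Mki67 read -2.52 and -3.59 against -1.73 and -1.91 (1.24, adjusted p = 0.19). Of 22 tested genes of the unfolded protein response 0 were called, 13 had both treated arrays below both controls and 0 above, against 29% and 19.3% of all genes, and the median was -0.27. The chaperone Calr read 3.83 and 3.75 against 3.13 and 2.93 (difference -0.76, adjusted p = 0.089). Of 18 tested injury genes and 23 tested heat shock and isolation stress genes 0 were called, with medians of 0.12 and -0.02. The injury genes Havcr1, Krt20 and Sox9 had no probe that passed the filter. Of 23 tested ADAMTS and matrix protease genes 1 rose, Adamts8, with a median of 0.08, and Mmp8, a collagenase of neutrophils, differed by -2.86 (adjusted p = 0.059). Of 18 tested glucocorticoid targets 1 rose (list median 0.21), Gadd45g, from 1.75 and 1.74 to 3.73 and 2.68 (1.47, SE 0.30, adjusted p = 0.046).

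Most clock genes split the 4 arrays by replicate number rather than by treatment. Of 20 tested genes of the circadian clock, the feedback loop in which Arntl and Clock drive the Per and Cry genes that repress them, 0 were called. The median difference was -0.30. It was -0.73 without control replicate 2 and 0.44 without treated replicate 2, so its direction depended on the arrays. For 16 of the 20 (80%) both arrays of number 1 lay on one side of both arrays of number 2, against 33.7% of all genes, and for 8 (40%) the gap was over 1, against 0.805%. These counts were made after the values were seen. Both treated arrays lay above both controls for 1 of the 20 and below both for 2, against 19.3% and 29% of all genes. Nr1d1 was among those below, at 1.67 and 1.22 in controls against 0.1 and 1.06 in treated glomeruli. Per1 read 3.1 and 4.44 against 3.79 and 1.9, and did not split by number. Arntl read -3.39 and -0.33 in controls and -3.30 and -0.04 in treated glomeruli, low on both arrays of number 1. Per2 read -1.14 and -3.69 against -1.14 and -5.39, and Per3 -2.44 and -4.94 against -2.82 and -6.34, both high on the arrays of number 1, where Arntl was low. Zbtb16 and Fkbp5, known targets of glucocorticoids, split the same way: Zbtb16 read 1.75 and -2.87 against 3.05 and -3.0. The list of 18 tested glucocorticoid targets did not split so in controls. Relative to each gene's mean, its median was -0.13 and -0.11 in controls and 0.70 and -0.31 in treated glomeruli. The labels give no hour of collection, and its part in this split was not tested.

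The E-box CACGTG, to which Arntl and Clock bind, stood in 28.6% of 21 promoters of tested clock genes and in 7.89% of those of all tested genes. Ciart, a repressor of the clock, read -2.81 and -3.30 on the arrays of number 1 and -5.97 and -7.49, not well above background, on those of number 2, and Cry1 read -4.33 and -4.63 against -7.22 and -6.73, again not well above background. Their promoters are shown with the E-boxes in capitals, Ciart with 3 (chr3:95882229-95882478, minus strand) and Cry1 with 1 at -60 (chr10:85185055-85185304, minus strand).
Ciart: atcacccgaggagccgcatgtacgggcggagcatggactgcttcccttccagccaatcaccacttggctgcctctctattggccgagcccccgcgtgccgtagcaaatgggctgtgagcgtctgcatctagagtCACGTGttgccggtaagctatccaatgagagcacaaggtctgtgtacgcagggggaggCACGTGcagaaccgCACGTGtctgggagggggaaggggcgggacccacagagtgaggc
Cry1: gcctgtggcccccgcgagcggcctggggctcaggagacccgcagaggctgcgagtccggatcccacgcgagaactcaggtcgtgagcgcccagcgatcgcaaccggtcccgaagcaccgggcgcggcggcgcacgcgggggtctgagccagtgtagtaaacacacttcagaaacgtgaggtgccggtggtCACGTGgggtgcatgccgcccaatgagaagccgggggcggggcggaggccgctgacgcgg

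**Figure D5:**
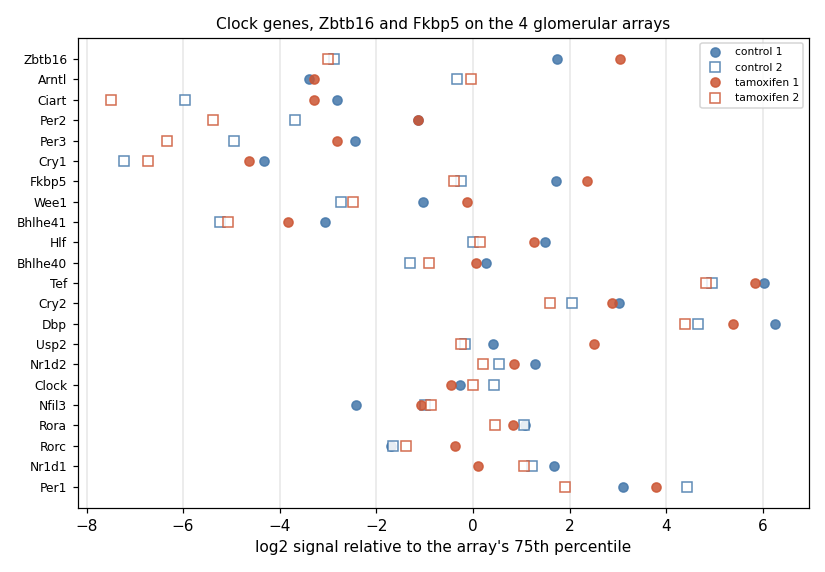
Level of clock genes on each of the 4 glomerular arrays (log2 signal relative to the array's 75th percentile), marked by replicate number. Arntl is low and Per2, Per3, Ciart and Cry1 are high on both arrays of number 1, in control and treated glomeruli alike.

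Foxc2 was lower and Foxl1 higher after tamoxifen in cultured podocytes as in glomeruli. The fall of Foxc2 in cultures was at least 139-fold by day 4 and 151-fold by day 7, a bound since 0 of its treated culture arrays were well above background. Foxc1 differed by -7.41 and -9.20, with 1 of the 2 treated arrays of each day well above background. Of the 493 called genes, 8 (1.62%) differed in the same direction by 2-fold or more between treated and mock cultures at both days, a share close to the 1.97% of all genes tested, so the count says nothing particular to the called genes. These 8 were Ces1f, Cnn1, Creg2, Foxc2, Foxl1, Ifitm1, Nrcam and Ntf5, and Cnn1, Foxl1 and Ntf5 were the 3 of them well above background on an array of each of the 6 groups. The genes were filtered on the glomerular arrays alone, and 330 of the 493 met that condition in cultures too. Tested against the mean of both culture days, the glomerular response itself differed by limma for 183 genes (1.3%). Of these, 124 were well above background on an array of each of the 6 groups, and the others have no exact difference. Foxc2 was called, with the smaller fall in glomeruli (adjusted p = 0.024, its size a bound), and Foxc1, at 6.45 (SE 2.06, adjusted p = 0.16), was not. Without single culture arrays the count of 183 went as low as 2, without treated replicate 1 it was 36 and without control replicate 1 it was 61.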

How the data were processed

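Cy3-labelled RNA of isolated glomeruli and of podocyte cultures was measured on 1-colour Agilent arrays, 12 in 6 groups of 2. Per the file headers, the deposited scanner files hold spot intensity written by Feature Extraction version 11.5.1.1, and the processed signal is already background-corrected there. The authors' deposited table of log2 values correlated with the scanner values at 1, with column medians of -4.14 to -3.81, and served as an alternative. All columns matched a sample.

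Of 39429 probes, 26581 had 1 gene symbol through their RefSeq accession, 0 had several and 12848 had none. Values were log2 of the processed intensity minus each array's 75th percentile. A probe was kept if 2 or more of the 4 glomerular arrays read it well above background, which 18426 with a symbol did, and the brightest kept probe stood for its gene, which left 14038 of 20144 genes, 3676 of them with several kept probes. Of 107 called genes with several probes, 4 had a probe of the other sign (Dcaf12l2, Gbp6, Nav2 and Osbpl1a). Group means of all 12 arrays were fitted with lmFit and eBayes of limma (version 3.58.1, R 4.3.3; 6 residual degrees of freedom, prior 1.98), after a test on simulated data. The threshold was an adjusted p (Benjamini-Hochberg) of 0.05. Precision is limited by how few arrays there are. For genes dim in cultures, such as Hbb-b2, Hao2, Dmgdh and Bhmt, the shared spread includes dim readings. The labels give separate mice.

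Named are the floxed genes and their neighbours, the 14 largest rises and falls, up to 5 bounds and 6 smallest p-values each way, and called, large or defining members of the gene lists. Some of them are not reported here. Members and lists were chosen with earlier results of these data known, and the defining members and clock genes shown after their values were seen. Alternatives covered background (normexp with an offset of 50, run on the median signal), scaling, filter, probe choice, variance model, arrays in the fit, replicate block and each array left out.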

Additional observations from a re-analysis of the deposited data

Results flagged for a closer look

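For the genes below limma's test of the difference between the glomerular response and the mean response of the day 4 and day 7 cultures gave an adjusted p under 0.05, beside 1.3% of all genes. Each was well above background on at least 1 array of each of the 6 groups, a condition set after the values were seen. The values are the glomerular difference minus the mean culture difference (log2). Among genes that rose in glomeruli it was 3.85 for Adamts8, 2.21 for Foxe1, 1.82 for Rrm2, 1.77 for the transporter Slc22a6 and 1.35 for Xaf1. Among genes that fell it was -2.15 for Gja3, -1.67 for Amph and -1.17 for Slc49a4. Xaf1 was lower in treated than in mock cultures on average, by -0.56. A further 24 named genes passed the test, Foxc2, Angptl7, Hbb-b2 and Kcnj14 among them. In at least 1 group these were not well above background on any array, so they have no exact difference and none is given.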

How the results depend on the processing

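No called gene that is named changed direction under any alternative. Of all 493 called genes, 485 kept their direction with normexp. Medians of lists carry no test, and that of the mesangial list (0.13) was -0.4 without control replicate 2. That of the clock list (-0.30) was 0.44 without treated replicate 2. The 493 calls (324 higher, 169 lower) became 12 (8 and 4) with normexp on the median signal, which changes the signal and the background method together, 275 (180 and 95) with no filter on dim probes and 0 in either direction on the 4 glomerular arrays alone. With median scaling 88 genes were lower. The fit with the replicate block, in which number 1 and number 2 are terms, called 797 genes, 366 of them lower, and Foxc2 kept -2.82 at an adjusted p of 0.051. With that block 5 of the 11 proximal tubule calls, 5 of the 7 of amino acid metabolism, 4 of the 6 of drug metabolism and 2 of the 5 of red cells remained. Arrays of 1 number deviated together at a correlation of 0.24 between the glomerular groups and of 0.452 to 0.597 between culture groups, over only 2 numbers, and were not treated as pairs. On the 4 arrays alone Foxc2 was -2.82 with an adjusted p of 0.24. Leaving out 1 array at a time gave 89 to 582 calls, 55 to 423 higher and 34 to 166 lower, and Foxc2 at -3.29 to -2.36. The 183 genes that differed between glomerular and culture response became 4 with normexp, 113 with no filter, 564 with the replicate block and 2 to 353 with 1 array left out. Where that left 1 sample in a group, the lone sample was assumed to vary like the other groups. Of 296 single results, normexp kept 169, the replicate block 276 and quantile normalization 290. A called gene was kept if it stayed called. An uncalled gene or a list median was kept if it moved by less than the spread between glomerular replicates. With normexp 81 called genes lost their call. A slide or scan block was not run, since all glomerular arrays share 1 slide and it holds 1 kind of sample. Genes dim in 1 group have only bounds.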
